A study of Homo sapiens with 18 samples.

Results

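H295R cells carrying a stable GRα expression vector were compared with H295R cells carrying the empty vector after 6 h of RU486. The arrays were chosen by their titles and make up 5 of the 17 arrays with values: 2 of GRα cells (replicates B and C) and 3 of control cells (replicates A, B and C). The column of GRα replicate A under RU486 is empty, and its label gives failed quality control as the reason. H295R is a steroid-producing line grown from an adrenocortical carcinoma, and GRα is the ligand-binding form of the glucocorticoid receptor, encoded by NR3C1.

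The study crossed both lines with RU486 at 100 nM, dexamethasone at 100 nM or ethanol vehicle, and measured total RNA on whole-transcript arrays. The GRα RU486 cells overexpress GRα from pcDNA4 without an inducible switch, and the control RU486 cells hold empty pcDNA4. Both lines grew in Zeocin, went without serum for 24 h and received the ligand for 6 h. Each line is a single stable line in these labels, so the transgene and any other difference between the lines cannot be told apart. The labels name biological replicates without stating separate cultures, and the p-values therefore reflect only how these samples vary, part of which may be technical.

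The glucocorticoid receptor is a steroid-activated transcription factor that waits in the cytoplasm with heat shock proteins, and moves to the nucleus on binding hormone. There it binds DNA or other transcription factors and raises or lowers the transcription of its targets. RU486 (mifepristone) binds the receptor in place of an agonist such as dexamethasone and mostly prevents activation, with partial agonist activity in some cells. No array combined dexamethasone with RU486, so blockade of an agonist was not measured. Adrenocortical cells make steroids from cholesterol, which they take up or synthesise.

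Values are log2 RMA values, and a difference of 1 is a 2-fold difference. Arrays of the same line under RU486 correlated at 0.996 to 0.997 over all genes, and arrays of different lines at 0.975 to 0.977. A gene was called at a limma adjusted p under 0.05 (Benjamini-Hochberg over 18417 genes), in a fit of all 17 arrays with a mean for each of the 6 groups. Of the 11 adrenocortical markers, all were measured. In GRα cells 5 were lower (45.5%, against 16.2% of all genes) and 1 higher (9.09%, against 13.1%). Their mean level was 8.02 to 8.04 on the GRα RU486 arrays and 8.36 to 8.51 on the control RU486 arrays. Markers of 5 other cell types had lower mean levels on every RU486 array, the highest being the epithelial list at 6.07 to 6.16 in GRα cells and 6.02 to 6.05 in control cells.

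Under RU486, 5386 of 18417 genes (29.2%) were called between the lines, of which 2407 (13.1%) were higher and 2979 (16.2%) lower in GRα cells. Most differences were small, with a median size of 0.42 log2 among the called genes and a median of -0.012 log2 over all genes. At least 1 log2 separated the lines in 255 genes that rose and 203 that fell, and at least 2 log2 in 27 and 29 genes. The 2 GRα arrays did not overlap with the 3 control arrays in 5377 of the called genes (99.8%), against 54.8% of all genes tested. In bulk RNA, fewer cells of a type and less RNA per cell cannot be told apart.

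NR3C1 was higher in GRα cells. It read 8.02 and 7.98 on the GRα arrays and 7.46, 7.40 and 7.31 on the control arrays, which did not overlap. The difference was 0.61 ± 0.07 log2 (SE), 1.52-fold, with a limma adjusted p of 3.99e-06. It was 0.71 log2 under dexamethasone and 0.59 log2 in vehicle, so the transcript excess was present in every treatment. RNA of the transgene and of the cell's own gene cannot be told apart with this probe set. NR3C2, the mineralocorticoid receptor, which also binds cortisol, went the other way, at 6.06 and 5.63 in GRα cells against 6.73, 6.59 and 6.71 in control cells (log2 -0.83 ± 0.11 SE, limma adjusted p = 1.90e-05).

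Among 20 steroid receptors and coregulators, 3 rose and 6 fell (13.1% and 16.2% of all genes). The estrogen receptor genes moved in opposite directions, with ESR1 higher by 0.85 ± 0.09 log2 (SE) and ESR2 at -0.70 ± 0.08 log2. PIAS1, a SUMO ligase that modifies nuclear receptors, rose by 0.81 ± 0.06 log2. The coactivator NCOA1 fell by 0.56 log2. Of 13 measured chaperones and cochaperones of the receptor complex, 3 rose and 4 fell, a called share of 53.8% against 29.2% of all genes. BAG1, a cochaperone of HSP70, was 1.85-fold higher (log2 0.89 ± 0.09 SE), at 7.94 and 8.09 in GRα cells against 7.12, 7.12 and 7.16 in control cells. DNAJA1, an HSP40 protein, was 1.51-fold higher, while STIP1, which links HSP70 to HSP90, had a log2 difference of -0.39. Of the HSP90 genes, HSP90AA1 differed by -0.07 log2 and HSP90AB1 by 0.16 log2, and neither was called (limma adjusted p = 0.534 and 0.0796). HSP90AB1 passed in 5 of the alternative settings, among them the replicate block (0.189 log2, limma adjusted p = 0.0444) and the trend and robust options (0.164 log2, limma adjusted p = 0.0111).

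**Figure D1:**
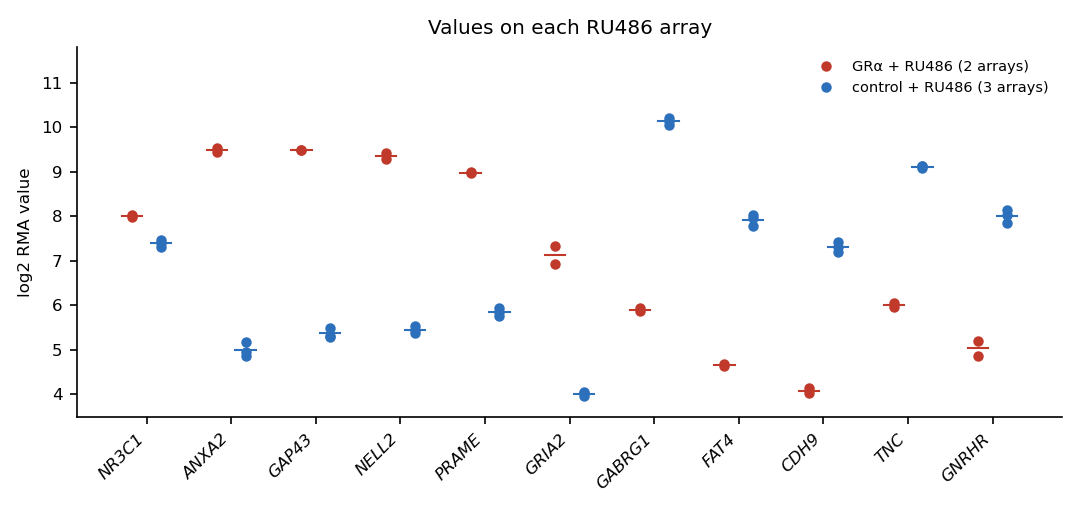
Log2 RMA value (y axis) of NR3C1, 5 of the largest rises and 5 of the largest falls on each RU486 array, with GRα arrays in red left of control arrays in blue and a line at each group's mean. The NR3C1 groups lie 0.61 log2 apart, against 4.49 log2 for ANXA2 and -4.23 log2 for GABRG1, and none of these groups overlap.

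The receptor transcript was not among the largest differences. ANXA2, a calcium-dependent membrane-binding protein that pairs with S100A10, read 9.54 and 9.45 in GRα cells and 5.18, 4.87 and 4.96 in control cells, or 22.5-fold higher (log2 4.49 ± 0.12, SE; adjusted p in limma 2.95e-14). ANXA2P2, a processed copy of ANXA2, was higher by 3.26 log2, and reads of near-identical copies are uncertain because probes may pick up both. S100A10 rose by 1.07 log2 and ANXA1, an annexin known as a glucocorticoid-induced gene, by 1.14 log2. Of 21 annexins and S100 proteins, 5 rose and 0 fell, a called share of 23.8% against 29.2% of all genes.

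Neuronal and secretory genes supplied several of the largest rises. GAP43, a membrane protein of growing axons, read 9.48 on both GRα arrays and 5.31, 5.50 and 5.29 on the control arrays, 17.3-fold higher. NELL2, a secreted neuronal glycoprotein, read 9.28 and 9.43 against 5.44, 5.38 and 5.53, 15-fold higher. Neither gene's groups overlapped. CHGB, a granin of dense-core secretory granules, was 7.82-fold higher. SNAP25, a SNARE protein that drives vesicle fusion, was 3.63-fold higher, and PAM, which amidates peptide hormones, was 2.83-fold higher. VAMP8, a SNARE of endosomes and granules, was 5.46-fold lower, at 5.96 and 6.26 in GRα cells against 8.65, 8.41 and 8.63 in control cells. Of 25 synapse and secretory granule genes, 14 rose (56%, against 13.1% of all genes) and 3 fell (16.2% of all genes), with a median of 0.34 log2. These genes were listed with earlier results of these data known.

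Markers of chromaffin cells, the catecholamine cells of the adrenal medulla, were called in 22.2% of cases, against 29.2% of all genes. CHGB and CHGA rose among 9 measured, whose mean level was 5.89 to 5.92 in GRα cells and 5.58 to 5.61 in control cells, and CHGA is a small difference (log2 0.45) that is lost without GRα replicate C (log2 0.272, limma adjusted p = 0.251). The catecholamine enzymes were not called: TH differed by -0.12 log2, DBH by -0.06 log2 and PNMT by -0.12 log2. The 3 enzymes lay between 5.50 and 6.24 in GRα cells and between 5.57 and 6.41 in control cells.

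Receptors for fast neurotransmitters held 1 of the largest rises and the largest fall. GRIA2, an AMPA glutamate receptor subunit, read 7.34 and 6.92 in GRα cells and 4.02, 4.06 and 3.97 in control cells, 8.65-fold higher. GABRG1, the γ1 subunit of the GABA-A receptor, read 5.93 and 5.86 in GRα cells and 10.14, 10.21 and 10.04 in control cells, 18.8-fold lower. GRIN3A, an NMDA receptor subunit, rose by 1.42 log2. Over 28 GABA, glycine and glutamate receptor subunits, 5 rose and 3 fell, a called share of 28.6% against 29.2% of all genes.

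Adhesion genes held several of the largest falls. The atypical cadherin FAT4 read 4.64 and 4.67 in GRα cells and 7.95, 8.03 and 7.78 in control cells, 9.60-fold lower. CDH9, a type II cadherin, was 9.31-fold lower, and PCDH20, a protocadherin, was 7.68-fold lower. CDHR1 and CDH12 were higher, by 1.34 and 0.65 log2. Of 33 cadherins and protocadherins, 7 rose and 7 fell, a called share of 42.4% against 29.2% of all genes. In the extracellular matrix and integrin list, 12 of 49 rose and 10 fell, a called share of 44.9%. TNC, the matrix glycoprotein tenascin C, was 8.61-fold lower, at 5.97 and 6.04 in GRα cells against 9.12, 9.08 and 9.13 in control cells. Integrin subunits ITGAV and ITGA5 rose by 1.34 and 1.05 log2. Other large rises were PRAME, a cancer-testis antigen (8.74-fold), ADGRG2, an adhesion G protein-coupled receptor (8.24-fold), TFAP2C, the transcription factor AP-2γ (5.85-fold), and HAS2, which makes hyaluronan (5.50-fold). Other large falls were GNRHR, the gonadotropin-releasing hormone receptor (7.85-fold), NPY1R, a neuropeptide Y receptor (5.44-fold), and LPAR4, a lysophosphatidic acid receptor (5.39-fold).

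Wnt signalling stabilises β-catenin, and many of its target genes encode feedback inhibitors of the pathway. Of 20 measured genes, 12 rose (60%, against 13.1% of all genes) and 1 fell, with a median of 0.59 log2. The list was drawn up with earlier results of these data known, so these shares are a description only. The feedback inhibitor APCDD1 read 10.59 and 10.58 in GRα cells and 8.57, 8.64 and 8.52 in control cells, 4.01-fold higher. NKD1, which binds Dishevelled, was 2.77-fold higher, and FZD7, a Wnt receptor, was 3.22-fold higher. AFF3, a nuclear protein of the AF4 family, was 7.56-fold higher. DKK1, a secreted inhibitor, was the member that fell (log2 -0.55 ± 0.08 SE). It was named here after its values were seen. The list had 14 called genes under dexamethasone, where 33.3% of all genes were called, and 15 in vehicle, where 33.4% were.

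Most cholesterol synthesis and uptake genes fell. Of 26 measured members, 20 were lower in GRα cells (16.2% of all genes were lower) and 2 were higher, with a median of -0.46 log2. The members were chosen with earlier results of these data known. LSS, which closes the sterol ring as lanosterol synthase, read 8.15 and 8.25 in GRα cells and a mean of 9.91 in control cells, 3.27-fold lower. SCARB1, the HDL receptor that delivers cholesterol esters, read 9.80 and 9.84 against 10.88, 10.72 and 10.84, 1.99-fold lower. DHCR7, which acts at the last step to cholesterol, was 1.92-fold lower, CYP51A1, the lanosterol demethylase, 1.78-fold, and IDI1, the isopentenyl diphosphate isomerase, 1.74-fold. The groups did not overlap in any of these 5 genes. The 2 higher members, named after their values were seen, were SQLE, squalene epoxidase (log2 0.25 ± 0.07 SE), and SOAT1, which esterifies cholesterol (log2 0.23). The same list counted 20 lower under dexamethasone (17.6% of all genes) and 22 lower in vehicle (18.3%).

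SREBF2 encodes a transcription factor that drives these genes through sterol elements. It was not called under RU486 (log2 -0.10 ± 0.16 SE, limma adjusted p = 0.711), against -0.08 log2 under dexamethasone and -0.48 log2 in vehicle, and the differences between treatments were not called. The related SREBF1, also in the list, was called lower (log2 -0.42 ± 0.13 SE, limma adjusted p = 0.0188). Its difference was -0.54 log2 under dexamethasone and -0.67 log2 in vehicle. The sterol element TCACNCCAC was searched on both strands in the 250 bases upstream of the start, in RefSeq promoters of GRCh38.p14. It occurred in 310 of 35116 promoters (0.883%). Of the 26 cholesterol genes, 24 had a promoter in the RefSeq table, and 1 of them held the element, SREBF2 itself, 133 bases upstream. The letters ACANNNTGT, the spacing core of a glucocorticoid element, occurred in 4.61% of all promoters and in 3 of the 27 promoters of called cholesterol genes, some of which have several, namely in those of CYP51A1, DHCR7 and MSMO1. These motifs do not overlap one another in the promoters printed, and a match is a description of letters. The promoters of SREBF2, CYP51A1 and MSMO1 are shown because they hold matches, with the matching bases in capitals, at chr22:41832855-41833104 (plus strand), chr7:92134478-92134727 (minus strand) and chr4:165327419-165327668 (plus strand). MSMO1, the sterol methyl oxidase, was 1.67-fold lower and was chosen for its match. The DHCR7 match lies 174 bases upstream in a promoter not shown, and the other DHCR7 promoter holds none.
SREBF2: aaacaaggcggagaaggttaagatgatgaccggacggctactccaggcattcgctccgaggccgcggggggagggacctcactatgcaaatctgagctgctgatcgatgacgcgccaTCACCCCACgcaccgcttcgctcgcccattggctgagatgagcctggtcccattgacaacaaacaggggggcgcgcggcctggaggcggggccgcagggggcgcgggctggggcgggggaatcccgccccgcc
CYP51A1: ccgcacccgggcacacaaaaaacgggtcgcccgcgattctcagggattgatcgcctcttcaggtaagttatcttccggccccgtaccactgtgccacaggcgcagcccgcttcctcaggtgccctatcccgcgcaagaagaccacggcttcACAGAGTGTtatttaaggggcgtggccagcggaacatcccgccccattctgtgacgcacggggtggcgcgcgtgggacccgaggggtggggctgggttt
MSMO1: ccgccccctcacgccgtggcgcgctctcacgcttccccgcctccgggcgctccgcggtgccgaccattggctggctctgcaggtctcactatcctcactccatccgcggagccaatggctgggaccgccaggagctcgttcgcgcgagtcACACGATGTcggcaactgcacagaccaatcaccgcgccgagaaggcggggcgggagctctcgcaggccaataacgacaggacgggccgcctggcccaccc

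Of 22 measured steroidogenic genes, 5 rose and 7 fell, where 13.1% and 16.2% of all genes did. HSD3B2, the adrenal 3β-hydroxysteroid dehydrogenase needed for cortisol and aldosterone, read 5.82 and 5.24 in GRα cells and 7.18, 6.82 and 7.55 in control cells, 3.16-fold lower. CYP19A1, aromatase, read 5.41 and 5.75 against 7.36, 7.22 and 7.31, 3.28-fold lower. Both genes' groups were apart by more than the spread within either. SULT2A1, which sulfates DHEA, was 2.06-fold lower, and STAR, which carries cholesterol to the inner mitochondrial membrane, was 1.72-fold lower. CYP17A1, needed for cortisol and androgens, rose by 0.45 ± 0.08 log2 (SE), and STS, the sulfatase that reverses SULT2A1, by 0.86 ± 0.11 log2. CYP11A1, the side-chain cleavage enzyme, had 10.09 and 10.17 in GRα cells against 10.14, 9.96 and 10.19 in control cells. Those arrays overlapped, and the difference was 0.03 ± 0.09 log2 (SE, limma adjusted p = 0.863). CYP11B1 and CYP11B2, the last enzymes to cortisol and aldosterone, differed by -0.13 and -0.20 log2 and were not called. Their mean levels over all arrays, 6.13 and 5.34, lay below the array medians of 6.28 to 6.35. Low signal limits what these missing calls show.

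Of 26 adrenocortical regulators, 6 were higher and 5 lower, a called share of 42.3% against 29.2% of all genes. The orphan receptor NR4A2 was 2.23-fold higher, at 6.65 and 6.30 in GRα cells against 5.52, 5.21 and 5.23 in control cells. PDE8A, a cAMP phosphodiesterase, was 2.04-fold higher, and its gene lies on chromosome 15. GATA6, a transcription factor of the adrenal cortex, fell by 0.50 log2. MC2R, the ACTH receptor, read 5.51 and 5.16 against 5.39, 5.31 and 5.70, and overlapped between lines. These readings lie below the array medians of 6.28 to 6.35.

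**Figure D2:**
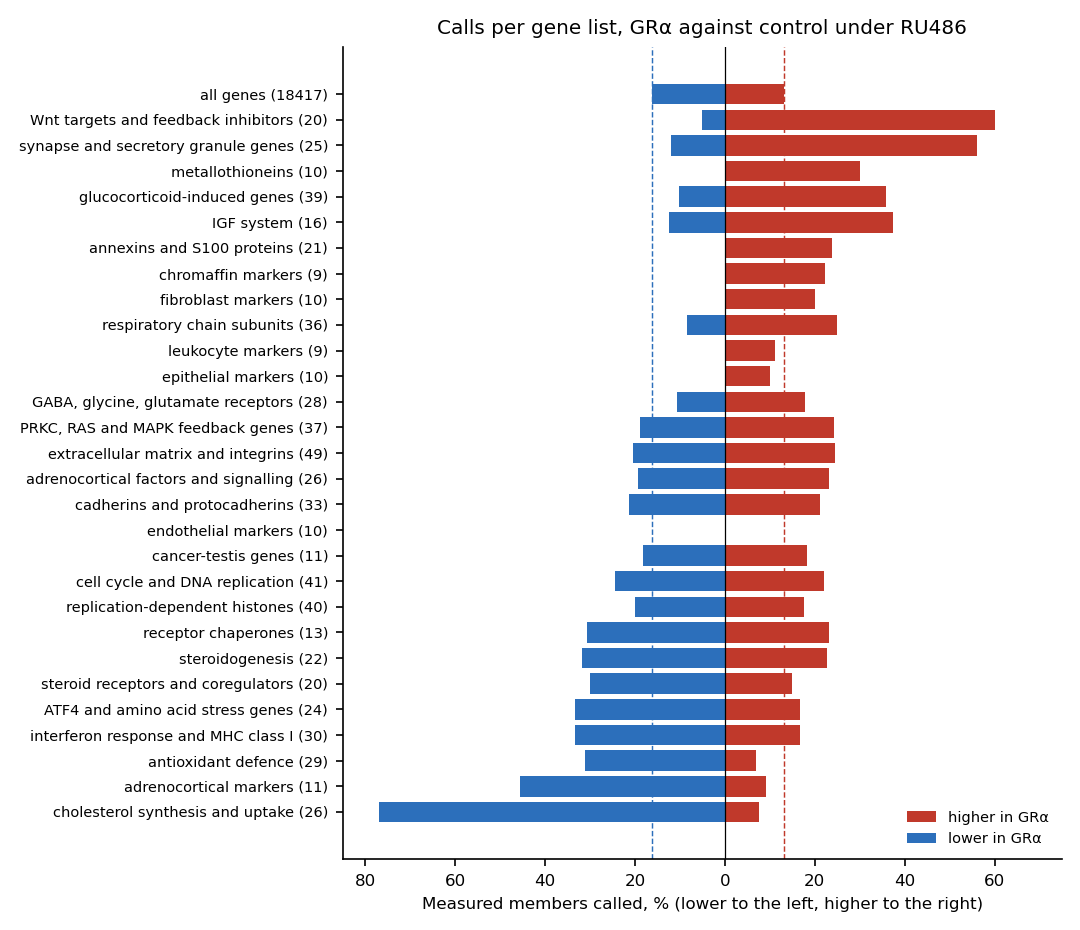
Percent of measured members called higher (red, right) or lower (blue, left) in GRα cells under RU486 for each gene list, with the number measured in brackets and dashed lines at the shares of all genes (13.1% higher, 16.2% lower). Wnt genes show the highest share of rises (60%), and cholesterol genes the highest share of falls. All lists were drawn up with earlier results of these data known.

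Glucocorticoid-induced genes, listed as known receptor targets with earlier results of these data known, were called in 18 of 39 cases. Of these, 14 were higher (13.1% of all genes) and 4 lower (16.2% of all genes). GLUL, glutamine synthetase, read 9.39 and 9.20 in GRα cells and a mean of 8.02 in control cells, 2.42-fold higher. GADD45A, a stress-induced growth arrest gene, was 2.10-fold higher. In vehicle, GLUL differed by 1.17 log2 and GADD45A by 0.98 log2. SGK1, a kinase induced by glucocorticoids and mineralocorticoids, read 8.16 and 8.19 against 7.23, 7.31 and 7.26, 1.88-fold higher. Neither of these genes' groups overlapped. SGK1 differed between the lines by 0.91 ± 0.08 log2 (SE) under RU486, by 1.19 log2 under dexamethasone and by 0.83 log2 in vehicle. ERRFI1, a feedback inhibitor of EGFR, rose by 0.32 log2, against 0.60 log2 under dexamethasone and 0.14 log2 in vehicle. DUSP1, the MAPK phosphatase, rose by 0.31 log2 and lost its call without GRα replicate B (log2 0.265, limma adjusted p = 0.10).

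Other classical targets were lower or level. TSC22D3, which encodes the anti-inflammatory mediator GILZ, read 7.21 and 7.37 in GRα cells and 7.94, 7.82 and 7.89 in control cells, 1.51-fold lower. Its line difference was -0.60 log2 under RU486, -0.24 log2 under dexamethasone and -0.65 log2 in vehicle. MAOA, monoamine oxidase A, read 5.13 and 5.02 against 5.93, 5.89 and 5.82, 1.74-fold lower. Both groups of arrays stood apart in each gene. PER1, a clock gene, had a log2 difference of -0.12 (95% interval -0.28 to 0.04), KLF9, a zinc finger factor, of 0.10, and SLC26A2, a sulfate transporter, of -0.02. None of these 3 was called. The 3 metallothioneins that rose, of 10 (13.1% of all genes), changed by at most 0.46 log2, and MT1F among them lost its call without GRα replicate C (0.167 log2, limma adjusted p = 0.210) or control replicate B (0.187 log2, limma adjusted p = 0.0777).

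**Figure D3:**
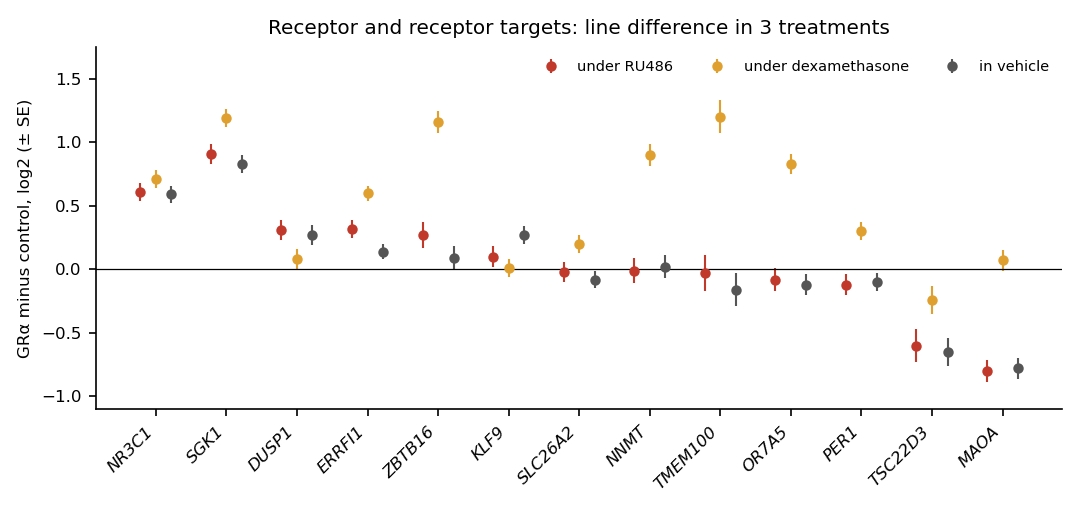
Line difference (GRα minus control, log2, ± SE) of NR3C1 and 12 other genes under RU486 (red), under dexamethasone (amber) and in vehicle (grey). ZBTB16, NNMT, TMEM100 and OR7A5 have differences between -0.08 and 0.27 log2 under RU486, against 0.83 to 1.2 log2 under dexamethasone.

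The line difference under RU486 was then tested against the line difference under dexamethasone. These contrasts share no arrays but share the spread estimate and the same lines. Of 18417 genes, 5 were called (0.0271%), all with a lower line difference under RU486, and 768 had an unadjusted p under 0.05. That count is below the share of 0.05 expected on average where no gene differs. ZBTB16, a zinc finger repressor known as PLZF and a strong receptor target, read 6.14 and 6.42 in GRα cells under RU486, against 6.03, 5.99 and 6.02 in control cells. Under dexamethasone it read 8.87, 8.75 and 8.72 in GRα cells against 7.59, 7.60 and 7.66 in control cells. In vehicle it read 6.33, 6.24 and 6.29 against 5.99, 6.32 and 6.28. Its RU486 arrays of both lines lay near the vehicle arrays, and its line difference was lower under RU486 by a log2 of -0.90 ± 0.13 (SE, limma adjusted p = 0.0132).

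TMEM100, a transmembrane protein linked to BMP signalling, had means of 5.33 in GRα cells and 5.35 in control cells under RU486, against 6.98 and 5.78 under dexamethasone (difference of differences -1.22 ± 0.19 log2 SE, limma adjusted p = 0.0284). NNMT, nicotinamide N-methyltransferase, had 5.75 and 5.76 under RU486, against 6.77 and 5.87 under dexamethasone (-0.91 ± 0.14 log2 SE, limma adjusted p = 0.0232). OR7A5, an olfactory receptor, had 4.37 and 4.45 under RU486, against 6.10 and 5.27 under dexamethasone (-0.91 ± 0.12 log2 SE, limma adjusted p = 0.0132). In these 3 genes the lines overlapped under RU486 and stood apart under dexamethasone. The vehicle means in GRα and control cells were near those under RU486. They were 5.26 and 5.41 for TMEM100, 5.73 and 5.71 for NNMT, and 4.42 and 4.54 for OR7A5. MAOA had another pattern. Its mean was 5.08 in GRα cells and 5.88 in control cells under RU486, 5.09 and 5.87 in vehicle, but 6.10 and 6.03 under dexamethasone, where the lines were level (-0.87 ± 0.12 log2 SE, limma adjusted p = 0.0132).

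The 5 calls depend on single arrays. No gene was called without GRα RU486 replicate B, without control RU486 replicate A or without control dexamethasone replicate B, and 2 were called without GRα dexamethasone replicate A or control RU486 replicate C. Of the 11 fits that each left out 1 RU486 or dexamethasone array, OR7A5 kept its call in 8, MAOA in 7, ZBTB16 in 6, TMEM100 in 4 and NNMT in 2, with no change of sign. ZBTB16 was also called between the lines under RU486 alone (log2 0.27 ± 0.10 SE, limma adjusted p = 0.0414). That call is lost without GRα replicate C (0.128 log2, limma adjusted p = 0.490), and without any 1 of the 3 control RU486 arrays (limma adjusted p from 0.0757 to 0.0952).

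Of the 5 genes, 2 had a promoter in the RefSeq table, MAOA and OR7A5. The letters ACANNNTGT, which occur in 4.61% of all promoters, were absent from the MAOA promoter. The OR7A5 promoter held them 166 bases upstream of its start. It is shown because it was the match among these genes, a search made after their values were seen, with the match in capitals, at chr19:14835186-14835435 (GRCh38.p14, minus strand).
OR7A5: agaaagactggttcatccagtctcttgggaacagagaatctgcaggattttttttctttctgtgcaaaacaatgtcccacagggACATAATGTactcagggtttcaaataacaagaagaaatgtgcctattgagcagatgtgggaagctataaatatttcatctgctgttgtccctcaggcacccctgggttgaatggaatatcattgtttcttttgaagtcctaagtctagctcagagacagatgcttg

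Against vehicle, the line difference under RU486 had 0 called genes in limma (0.00%), and 745 genes had an unadjusted p under 0.05. This count too is below the share of 0.05 expected on average where no gene differs. GRα vehicle replicate B stood apart, correlating at 0.9898 and 0.9897 with replicates A and C, which correlated at 0.9957. It enters the vehicle differences and the shared spread estimate. Without it the count against vehicle was also 0. The line differences followed each other over all genes, with a Pearson correlation across genes of 0.928 with dexamethasone and 0.924 with vehicle. Genes are not independent replicates, and the same lines enter every contrast. Of the 2407 genes higher under RU486, 2092 (86.9%) were also higher under dexamethasone, which is 72.3% of the genes higher there, and 1977 (82.1%) in vehicle, which is 71.3% of the genes higher there. Of the 2979 lower genes, 2456 (82.4%) were also lower under dexamethasone, 75.8% of its list, and 2531 (85.0%) in vehicle, 75.0% of its list. Calls in opposite directions numbered 4 with dexamethasone and 3 with vehicle. All 3 treatments shared 1876 rises and 2247 falls, 76.6% of the RU486 calls.

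**Figure D4:**
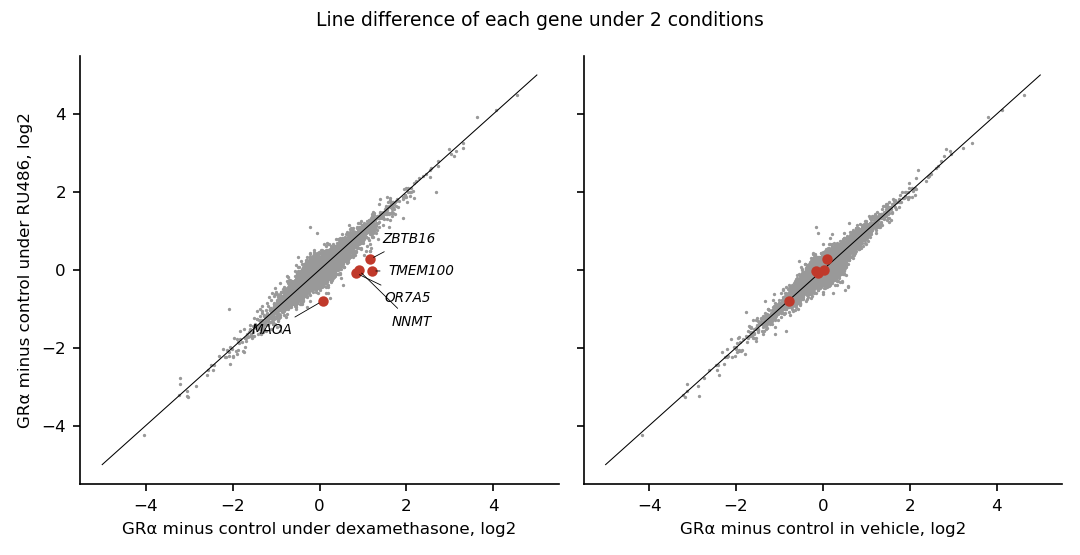
Line difference of each of 18417 genes (GRα minus control, log2) under RU486 on the y axis, against that under dexamethasone (left) and in vehicle (right), with the line of equal differences. The 5 genes called in the test of RU486 against dexamethasone are red and lie below the line in the left panel.

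Nearly all RU486 calls had the same sign in the other treatments. Of the rises, 98.6% did so under dexamethasone and 98.8% in vehicle, and of the falls 98.4% and 98.7%. Of 458 genes called with at least 1 log2 under RU486, 457 were called in the same direction under dexamethasone and 457 in vehicle. Large differences pass the threshold more readily, so these counts do not show that smaller ones matched less. The median ratio of the other difference to the RU486 difference was 0.98 for dexamethasone and 0.97 for vehicle. These genes were selected by their size under RU486, which alone can lower this ratio. ANXA2 differed by 4.49 log2 under RU486, 4.54 under dexamethasone and 4.63 in vehicle. GABRG1 differed by -4.23, -4.05 and -4.16 log2 in the same order. Large line differences of these genes were therefore present with or without ligand.

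Growth and signalling genes also differed between the lines under RU486. CCND2, cyclin D2, read 11.29 and 11.31 in GRα cells and 8.88, 8.94 and 8.98 in control cells, 5.15-fold higher. CCNB2, cyclin B2, was 2.16-fold higher and CDKN2A, a cell cycle inhibitor, 1.85-fold higher. The cell cycle list as a whole had 9 of 41 higher and 10 lower, with a median of 0.07 log2 and a called share of 46.3% (29.2% of all genes). In the IGF system, 6 of 16 rose and 2 fell, 37.5% and 12.5% against 13.1% and 16.2% of all genes. IGFBP7 and IGFBP3, which bind insulin-like growth factors, were 3.79-fold and 2.63-fold higher, and the receptor IGF1R rose by 0.77 log2. Of 37 genes of PKC, RAS and MAPK feedback, 9 rose and 7 fell, a called share of 43.2%. The MAPK phosphatases DUSP10 and DUSP6 were 3.68-fold and 3.34-fold lower, and SPRY2, a receptor tyrosine kinase inhibitor on chromosome 13, was 2.37-fold lower. KIT, a receptor tyrosine kinase, was 1.81-fold higher.

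Stress and defence genes held several large falls. TXNIP, the thioredoxin inhibitor, read 8.12 and 8.10 in GRα cells and 10.32, 10.21 and 10.54 in control cells, 4.74-fold lower. GPX7, a peroxidase of the endoplasmic reticulum, was 5.97-fold lower, at 5.46 and 5.66 against 8.16, 8.14 and 8.12. The antioxidant list had 2 of 29 higher (13.1% of all genes) and 9 lower (16.2% of all genes), and HMOX1, heme oxygenase 1, was among the rises (log2 0.79). Of 30 interferon and antigen presentation genes, 5 rose and 10 fell, a called share of 50% against 29.2% of all genes. XAF1, an interferon-induced apoptosis factor, was 4.64-fold lower, at 5.23 and 5.20 against 7.47, 7.38 and 7.44, and IFIH1, an RNA sensor, was 2.20-fold lower. In the amino acid stress list, 4 of 24 rose and 8 fell (16.2% of all genes fell), among them PHGDH, the first enzyme of serine synthesis (log2 -0.62).

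Histone and mitochondrial genes were called at shares nearer that of all genes (29.2%), 37.5% for 40 replication-dependent histone genes and 33.3% for 36 respiratory chain subunits. Of the histone genes, 7 rose and 8 fell. H3C11, a histone H3 gene, read 6.57 and 6.62 in GRα cells and 9.43, 9.15 and 9.53 in control cells, 6.85-fold lower. Histone genes are near-identical copies whose probe sets may share RNA, so single members are uncertain. The list had 20 called genes under dexamethasone (33.3% of all genes were called), 3 higher and 17 lower. It had 15 in vehicle (33.4%), 9 higher and 6 lower. No histone gene was called in the tests between treatments. Of the respiratory chain subunits, 9 rose and 3 fell (13.1% and 16.2% of all genes). Under dexamethasone 7 were higher and 8 lower, and in vehicle 5 were higher and 6 lower. NDUFB3 and NDUFS1, both of complex I, rose by 1.19 and 0.73 log2.

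The called genes were unevenly spread over the chromosomes, by the RefSeq positions. On chromosome 15, 51.2% of 576 genes were higher (13.1% of all genes) and 14 lower, with a median of 0.278 log2. ANXA2, CGNL1, UACA and LRRC49, which are 4 of the 15 largest rises, lie there, as do PIAS1 and CCNB2. On chromosome 13, 156 of 317 genes were lower (49.2%, against 16.2% of all genes), with a median of -0.255 log2. Chromosome 21 had 94 of 236 lower (39.8%), and LSS lies there. On chromosome 9, 221 of 732 genes were higher (30.2%). On chromosome 19, 320 of 1308 were lower (24.5%), and 5 of the 15 largest falls were on chromosome 4. The medians of chromosome 15 were 0.274 under dexamethasone and 0.266 in vehicle, and those of chromosome 13 were -0.224 and -0.241. DNA copy number was not measured, and its part in these differences was not tested.

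**Figure D5:**
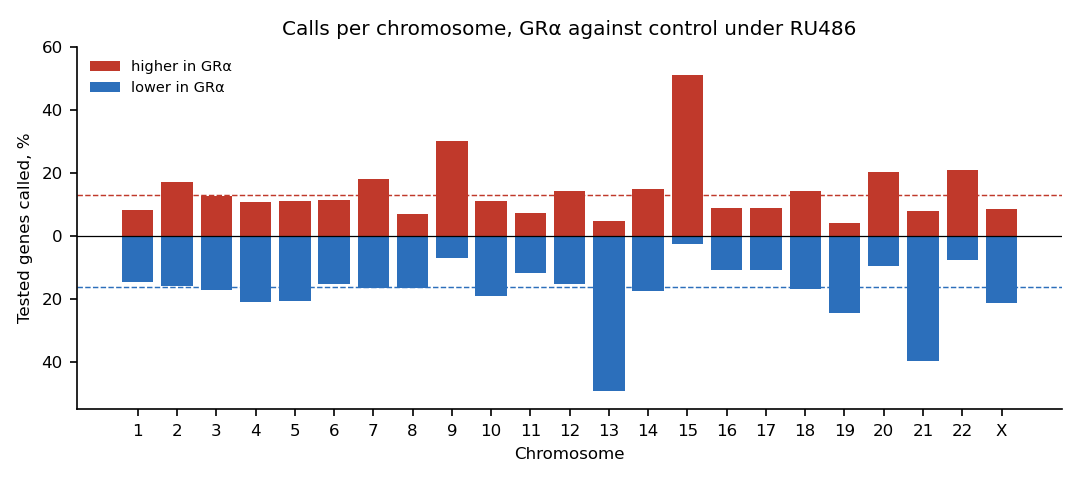
Percent of tested genes on each chromosome called higher (red, up) or lower (blue, down) in GRα cells under RU486, with dashed lines at the shares of all genes (13.1% and 16.2%). Chromosome 15 has 51.2% higher and chromosome 13 has 49.2% lower.

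Neighbouring genes moved in 1 direction over 79 runs of at least 5 tested genes, 50 of them higher and 29 lower, which hold 537 genes. The longest run was 18 lower genes on chromosome 19, nearly all zinc finger genes, between ZNF805 and ZNF211, with a median of -0.58 log2 and a range of -0.91 to -0.35. The next was 17 higher genes on chromosome 15 between ULK3 and SNX33 (median 0.71 log2), which includes the respiratory chain gene COX5A. Chromosome 19 held 2 more long runs made up mainly of zinc finger genes, with 16 lower genes between ZNF577 and ZNF528 (median -0.75 log2) and 12 between ZNF578 and ZNF702P (median -0.78 log2). Zinc finger genes of such clusters are similar in sequence, and probes may read more than 1. On chromosome 21, 14 genes were lower between IFNAR2 and LINC00310 (median -0.61 log2), a stretch with interferon receptor genes. All 18, 17, 16 and 14 genes of the 4 longest runs were called in the same direction under dexamethasone and in vehicle, and 11 of the 12 in each for the fifth.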

How the data were processed

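RNA of the H295R lines was measured on whole-transcript arrays. The authors deposited log2 values for 29153 probe sets, with RMA and limma named in the submitters' processing notes. Tool versions, settings and the genome build were not given in the sources used here. RMA equalises the arrays' distributions, so a shift of most RNAs one way would not show. The table has 18 array columns, 17 with values, from 2.07 to 14.15 log2, with array medians of 6.28 to 6.35 and 0 identical pairs. Array number limits the precision.

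Groups came from the labels. Probe sets were named from the platform annotation, updated by Entrez number (19429 of 19460 with 1 symbol). The 1754 with several symbols and the 7939 with none were left out, and the brightest of several was used (769 genes), leaving 18417 genes. Listed genes without a probe set of their own, such as FKBP5 and CYP21A2, are not analysed here. RefSeq (GRCh38.p14) gave names, chromosomes, gene order and promoters.

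One limma fit (3.58.1, R 4.3.3) over 17 arrays with 6 group means had 11 residual degrees of freedom and a prior worth 5.89. Two-sided tests were used, with Benjamini-Hochberg adjustment and a threshold of 0.05. The fit was tested on simulated data. The 28 lists hold 690 genes, 623 measured, and are described by counts. Members and lists were chosen with earlier results of these data known. Named genes are NR3C1 and a set of receptor targets and steroidogenic genes, the 15 largest rises and falls with groups apart, and up to 6 called and 4 other members of each list, some left out for length. Same-letter arrays deviated together over 0.1 in 5 of 40 pairs, all within a line. The highest was 0.324, between control vehicle A and control dexamethasone A. Between the lines under RU486 the values were -0.062 for B and -0.071 for C. The main fit does not pair arrays by letter, and a fit with the letter as a block is given below. Alternatives were other normalization, gene units, filters, limma options, thresholds, arrays and leaving out each array.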

Additional observations from a re-analysis of the deposited data

Results flagged for a closer look

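The test of the line difference under RU486 against the line difference under dexamethasone picked out 5 genes, in which GRα and control cells differed otherwise with the antagonist than with the agonist. The log2 difference of differences (RU486 minus dexamethasone) was -1.22 for TMEM100, -0.91 for NNMT, -0.91 for OR7A5, -0.90 for ZBTB16 and -0.87 for MAOA. In that order, the line differences under RU486 were -0.03, -0.01, -0.08, 0.27 and -0.80 log2. Those in vehicle were -0.16, 0.02, -0.12, 0.09 and -0.78 log2, and no difference between RU486 and vehicle was called. Their 95% intervals ran from -1.63 to -0.82 for TMEM100, from -1.2 to -0.62 for NNMT, from -1.16 to -0.65 for OR7A5, from -1.16 to -0.63 for ZBTB16 and from -1.13 to -0.61 for MAOA.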

How the results depend on the processing

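Under RU486 the count of called genes was 5386, and it lay between 3881 and 6158 when 1 array at a time was left out, the low end without GRα replicate C and 3916 without GRα replicate B. The high end came without GRα vehicle replicate B, an array that correlated less with its replicates. The replicate letter as a block gave 5099, fitting the 5 RU486 arrays alone 5908, array weights 6485 and an adjusted p under 0.01 gave 3737. A minimum difference of 1 log2 left 458 under RU486, 479 under dexamethasone and 435 in vehicle. Without each RU486 array in turn, 3052 of the 5386 calls held (56.7%), and 455 of the 458. The 5 genes called between RU486 and dexamethasone became 17 with array weights, 9 with trend and robust options, 1 at a minimum of 1 log2, 0 at an adjusted p under 0.01 and 4 with the replicate block, where NNMT was lost (limma adjusted p = 0.0519). Leaving out single arrays gave 0 to 7. The count against vehicle was 0 under every alternative run. Of 154 named genes called under RU486, 141 kept their call in all 25 settings that refit them, 13 lost it in at least 1, and 0 changed sign. Of 115 named genes that were not called, 26 were called in at least 1 setting, HSP90AB1 and AGTR1 among them. The block ended the calls of ZBTB16 (0.260 log2, limma adjusted p = 0.0668), FDX1 (-0.204 log2, 0.0616) and MAGEA1 (-0.258 log2, 0.0642), and no other called named gene. Where a call ended, the cause was not tested. With 2 GRα arrays, small differences rest on little replication.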

Other observations

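Of the genes called under RU486, 447 were called in neither vehicle nor dexamethasone. Their median size was 0.30 log2 and their largest 1.10 log2, and 0 of them had a called difference from dexamethasone or from vehicle, so none is shown to be particular to RU486. The 3 smallest p-values against vehicle belonged to genes below the array medians. STEAP1B read 3.88 and 3.89 in GRα cells and 4.27, 4.53 and 4.41 in control cells under RU486, a line difference of -0.52 log2, against 0.50 log2 in vehicle (limma adjusted p of the difference = 0.67). CEACAM20 differed by -0.32 log2 under RU486 and 0.43 log2 in vehicle, and ANKRD61 by -0.56 and 0.01 log2, both with an adjusted p of 0.67 in limma.

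NR5A1, the transcription factor that directs adrenocortical steroidogenesis, read 8.50 and 8.53 in GRα cells and 8.60, 8.45 and 8.53 in control cells under RU486. The arrays overlapped, and the line difference was -0.01 log2 under RU486, -0.07 log2 under dexamethasone and -0.39 log2 in vehicle. The difference between RU486 and vehicle was 0.38 ± 0.12 log2 (SE) and was not called (limma adjusted p = 0.999). SREBF2 stood at -0.10, -0.08 and -0.48 log2 in the same treatments.

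Cancer-testis genes, normally silent outside the germ line, stood at contrasting levels. MAGEC1 read 8.08 and 8.17 in GRα cells and 6.36, 6.28 and 6.29 in control cells, 3.52-fold higher, while MAGEC2 was lower by a log2 of -0.47, a call lost without GRα replicate B (-0.397 log2, limma adjusted p = 0.0544). Of 11 measured, 2 rose and 2 fell, a called share of 36.4% against 29.2% of all genes.

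Among markers of other cell types, FAP and COL1A1 rose among 10 fibroblast markers, LCP1 among 9 leukocyte markers and KRT18 among 10 epithelial markers, and 0 of 10 endothelial markers were called, where 29.2% of all genes were. The rise of COL1A1 is lost without GRα replicate C (0.367 log2, limma adjusted p = 0.102).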
